A study of Homo sapiens with 6 samples.

Results

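The AP-1 transcription factor genes FOS, FOSB, FOSL1, FOSL2, JUN, JUNB and JUND, together with the immediate early genes EGR1, IER2 and DUSP1, were examined in BxPC-3 tumors from mice given deferasirox (DFX) or the vehicle. These 10 genes were chosen by name, as array probes whose gene name equals one of the symbols, and each had exactly 1 probe. They stand for 10 of the 34423 gene names on the array, and all 10 probes were among the 31807 tested. BxPC-3 is an established human pancreatic adenocarcinoma cell line, and its cells were grown under the skin of female BALB/c nude mice that were 8 to 10 weeks old at the start, so the RNA could also hold mouse transcripts. The DFX group received 200 mg/kg of the iron chelator by gavage on 3 days a week for 21 days, starting at a tumor volume of 150 mm3. The control group received the vehicle alone. All 6 tumors came from the same single cell line in immunodeficient hosts, and RNA of 3 control and 3 DFX-treated tumors was measured. No source ties a tumor to a particular mouse, so the p-values measure the spread between tumors.

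AP-1 is a dimer of a Fos and a Jun protein, or of a pair of Jun proteins, that binds DNA through a basic region beside a leucine zipper. Most of these genes are switched on within minutes of a growth factor, a stress or tissue injury, without new protein synthesis, and their mRNAs are short-lived. Growth factor signals through the ERK kinases reach them by the serum response factor, which binds the CArG box together with Ets factors such as ELK4, while CREB and ATF proteins act through the cyclic AMP response element (CRE). In carcinoma cells AP-1 is known for its control of proliferation, invasion and the response to RAS signaling. Bulk tumor RNA shows the sum over cells, and fewer expressing cells cannot be told apart from less RNA per cell.

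Several of these inputs act through short motifs upstream of a gene, and only the bases next to the start were searched here. RefSeq promoters on GRCh38.p14 were found for 9 of the 10 genes, all but FOSL1. The 250 bases before the gene start are printed for 4 of them, because JUNB and FOSL2 differed most between the groups in opposite directions, EGR1 carries the CArG boxes and DUSP1 a full CRE. JUNB lies at chr19:12791236-12791485, plus strand, FOSL2 at chr2:28392608-28392857, plus strand, EGR1 at chr5:138465229-138465478, plus strand and DUSP1 at chr5:172771196-172771445, minus strand. Capitals mark matches to the CRE or its core, the CArG box and the TATA box, on either strand.
JUNB: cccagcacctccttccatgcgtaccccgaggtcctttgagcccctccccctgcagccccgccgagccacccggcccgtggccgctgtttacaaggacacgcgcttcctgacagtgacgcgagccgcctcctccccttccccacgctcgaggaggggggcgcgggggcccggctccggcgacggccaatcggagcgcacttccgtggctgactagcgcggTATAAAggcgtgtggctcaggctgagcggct
FOSL2: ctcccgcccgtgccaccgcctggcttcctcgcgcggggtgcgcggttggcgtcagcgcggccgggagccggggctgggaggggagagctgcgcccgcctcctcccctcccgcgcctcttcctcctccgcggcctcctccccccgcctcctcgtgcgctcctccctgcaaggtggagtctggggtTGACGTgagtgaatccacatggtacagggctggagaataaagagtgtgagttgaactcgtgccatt
EGR1: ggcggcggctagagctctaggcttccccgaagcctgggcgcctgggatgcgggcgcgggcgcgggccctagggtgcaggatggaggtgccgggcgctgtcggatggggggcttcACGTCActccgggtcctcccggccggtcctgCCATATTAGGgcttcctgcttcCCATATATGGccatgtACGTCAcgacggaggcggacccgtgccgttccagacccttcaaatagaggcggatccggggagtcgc
DUSP1: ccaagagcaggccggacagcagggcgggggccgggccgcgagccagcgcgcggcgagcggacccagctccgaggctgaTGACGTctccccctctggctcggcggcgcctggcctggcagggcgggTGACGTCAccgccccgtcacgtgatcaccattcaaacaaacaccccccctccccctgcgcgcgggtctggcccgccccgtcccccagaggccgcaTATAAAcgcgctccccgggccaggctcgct
A full CRE (TGACGTCA) was found in DUSP1 and JUND, that is in 2 of the 9 promoters, and in 1.65% of all 35116 promoters of this length. Its core (TGACGT, which overlaps the full CRE and was chosen after the promoters had been read) was found in 6 of the 9, namely FOS, FOSB, FOSL2, JUND, EGR1 and DUSP1, against 7.10% of all promoters. EGR1 held 2 CArG boxes, from 105 to 96 and from 83 to 74 bases before the start, and was the only one of the 9 with such a match, which 1.16% of all promoters hold. A TATA box (TATAAA) was found in FOS, FOSB, JUNB and DUSP1, against 3763 of all 35116 promoters. JUNB had neither the CRE core nor a CArG box in this window. The GC box (GGGCGG), which is not in capitals, was found in 7 of the 9 and in 42.6% of all promoters. Exact matches to the AP-1 element (TGANTCA) and an EGR site (GCGGGGGCG) were found in none of the 9, against 6.57% and 4.72% of all promoters. Variants of the motifs, such as TGACATCA in the JUN window, were not searched, so the absence of a match does not show the absence of a site. These matches describe letters in a window and were not measured as binding.

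**Figure D1:**
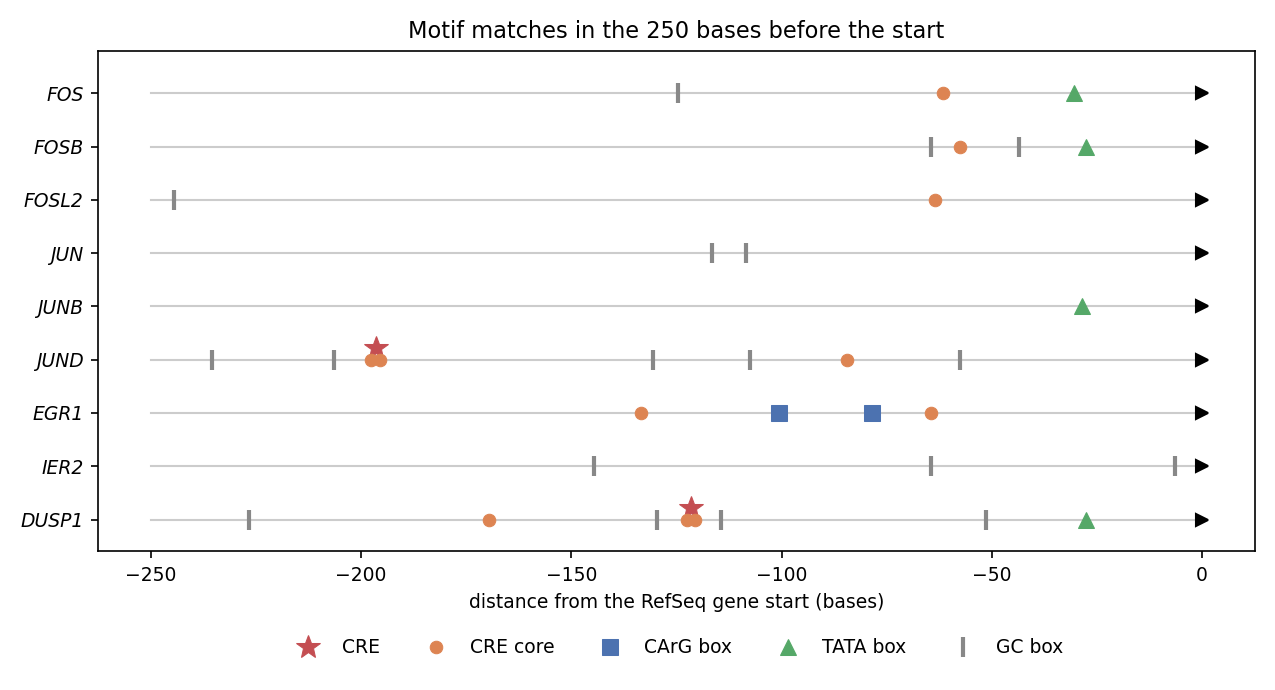
Motif matches in the 250 bases before the RefSeq gene start of 9 members, with the distance from the start in bases on the x axis and a gene in each row. Stars mark a full CRE, circles the CRE core, squares the CArG box, triangles the TATA box and bars the GC box. The CArG boxes lie in EGR1 alone, the full CRE in JUND and DUSP1, and the TATA boxes of FOS, FOSB, JUNB and DUSP1 lie between 33 and 25 bases before the start.

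The 10 probes were 60-mers, and the longest run of bases that any of their 45 pairs shared was 13. The JUNB probe begins gctttgtcaaagccctggacgatctgcaca and lies on chromosome 19 from 12902998 to 12903057 (array annotation, hg19). The FOSL2 probe begins tgggactggaagtgacctgtacaagtgatg and lies on chromosome 2 from 28637175 to 28637234 (hg19). The first 30 bases of each are shown because the calls of the comparison rest on these probes. Every spot of the 10 probes was well above background in all 6 tumors, and none was saturated or flagged as an outlier. All arrays were on 1 slide, where row 1 held the controls and row 2 the tumors under DFX, so the row of the slide and the treatment cannot be told apart. Over all probes, log2 intensities of different arrays correlated at 0.980 to 0.990.

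To ask whether DFX altered this gene group, the tumors were compared on quantile-normalized log2 intensities with limma. At the unadjusted threshold of p under 0.05 that the study used, JUNB was lower and FOSL2 was higher in the DFX-treated tumors. These are 2 of 10 genes, against 8.41% of all tested probes, of which 4.95% were called lower and 3.46% higher. None of the 10 passed an adjusted p under 0.05 in limma with Benjamini-Hochberg adjustment over all probes, as 0 of 31807 probes did, and the lowest adjusted p among the 10 was 0.569. The log2 fold change was below 0 for 8 of the 10 genes, against 52.3% of the 22718 tested genes, and its median was -0.14 against -0.012 over all genes. That median was -0.059 without control replicate 2, and -0.21 without DFX replicate 2 or DFX replicate 3. The members were chosen with earlier results of these data known, so their count below 0 is descriptive. Groups without overlap were found for JUNB, FOSL2 and IER2, that is for 3 of the 10 (1 lower and 2 higher), against 15.5% of all tested probes (9.15% lower and 6.34% higher). With 3 tumors per group the exact permutation test cannot go below p = 0.1, which it gave for these 3 genes (two-sided). Among all called probes 58.8% were lower, a share that 75th percentile scaling changed to 42.6% and median scaling to 71.8%, so directions are relative to the scaling between arrays.

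**Figure D2:**
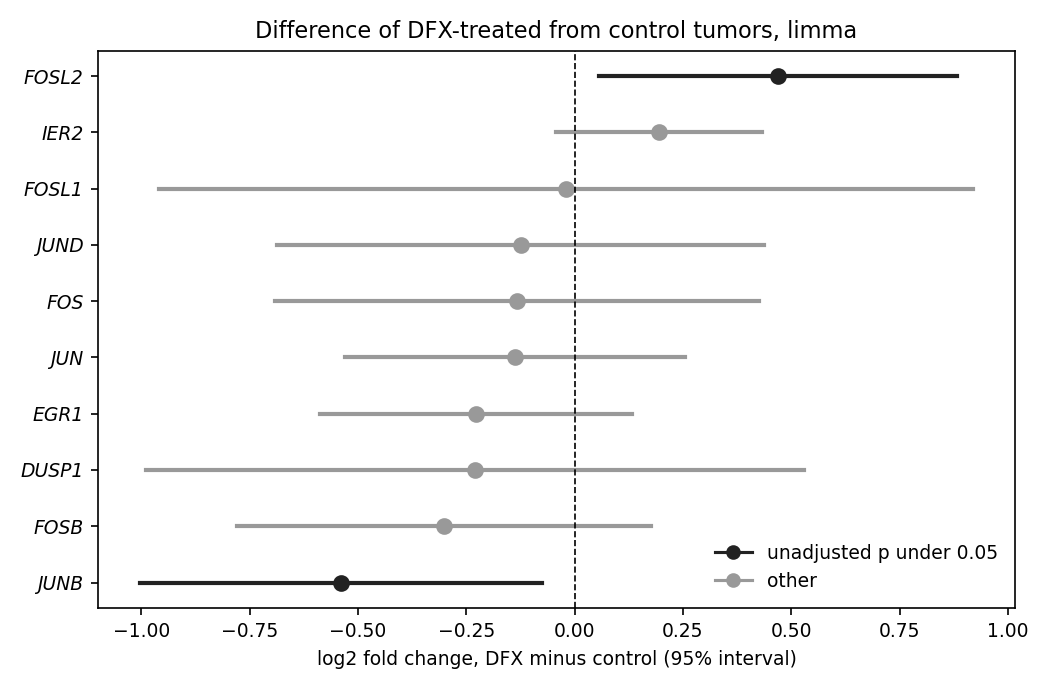
Log2 fold change of DFX-treated against control tumors (x axis) for each gene (rows), with 95% intervals from limma (3 tumors per group). Dark points have an unadjusted p under 0.05. The intervals of JUNB and FOSL2 lie on opposite sides of 0, and the other 8 intervals include 0.

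FOS, the founding member of the Fos family, had normalized log2 intensities of 12.84, 13.08 and 12.78 in control replicates 1 to 3 and of 12.29, 12.94 and 13.06 in DFX replicates 1 to 3. DFX replicate 1 was the lowest of all, while the other DFX-treated tumors lay at the height of the control tumors, so the groups overlapped. The difference between the means was -0.13 on the log2 scale (95% interval -0.69 to 0.42), with an unadjusted p of 0.580 and an adjusted p of 0.883 from limma and an exact permutation p of 0.8. Without DFX replicate 1 it was 0.10.

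FOSB, a close relative of FOS that also forms dimers with Jun proteins, had log2 intensities of 9.46, 9.73 and 10.16 in control replicates 1 to 3 and of 9.39, 9.60 and 9.45 in DFX replicates 1 to 3. The highest value was control replicate 3, and the tumors under DFX lay close together around the lowest control. On the log2 scale the DFX-treated tumors differed by -0.30 (95% interval -0.78 to 0.18), with an unadjusted p of 0.174 and an adjusted p of 0.703 from limma and an exact permutation p of 0.2. It was -0.11 without control replicate 3, and -0.46 without control replicate 1, where the unadjusted limma p was 0.0451.

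FOSL1, which encodes FRA-1, a Fos protein without a strong activation domain that is frequent in invasive carcinoma cells, varied most. It was at 8.61, 9.55 and 10.09 in control replicates 1 to 3 and at 9.58, 9.53 and 9.09 in DFX replicates 1 to 3. The control tumors alone spanned 1.48 on the log2 scale and enclosed all DFX-treated tumors. FOSL1 had a log2 fold change of -0.019, with a 95% interval from -0.96 to 0.92, and its unadjusted limma p was 0.961. Its spread within groups was larger than that of 88.4% of the tested probes.

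FOSL2, which encodes FRA-2, the other Fos protein of this kind, had log2 intensities of 9.46, 9.57 and 9.01 in the control tumors. The DFX-treated tumors were at 9.89, 9.74 and 9.83. All DFX-treated tumors lay above all control tumors, and they differed by only 0.15 among themselves, while control replicate 3 was clearly the lowest. The control mean was 9.35 ± 0.29 (SD, n = 3), and the mean under DFX was 9.82 ± 0.077 (SD, n = 3). The rise was 0.47 on the log2 scale (standard error 0.17), a signal 38.5% higher, with an unadjusted p of 0.0319 and an adjusted p of 0.570 from limma. It was 0.30 without control replicate 3, still with an unadjusted limma p of 0.0434, and the p rose to 0.0895, 0.0528 and 0.0730 without DFX replicates 1, 2 and 3.

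JUN, the Jun family member with the strongest activity in AP-1, had log2 intensities of 11.13, 11.36 and 11.20 in control replicates 1 to 3 and of 11.06, 10.86 and 11.37 in DFX replicates 1 to 3. DFX replicate 3 was the highest and DFX replicate 2 the lowest of all 6, and the log2 fold change was -0.019 without the latter and -0.27 without the former. The change on the log2 scale was -0.14 (95% interval -0.53 to 0.25), with an unadjusted p of 0.423 and an adjusted p of 0.825 from limma and an exact permutation p of 0.5.

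JUNB, which is known to restrain JUN in many promoters and is itself a rapid target of TGF-β and cytokines, had log2 intensities of 9.10, 9.56 and 9.14 in the control tumors. The DFX-treated tumors were at 8.67, 8.99 and 8.51. Every tumor under DFX was thus below the lowest control, but the gap between DFX replicate 2 and control replicate 1 was only 0.10. The control mean was 9.26 ± 0.26 (SD, n = 3), and the mean under DFX was 8.72 ± 0.24 (SD, n = 3). JUNB differed by -0.54 on the log2 scale (standard error 0.19), so the signal fell by 31.2%, with an unadjusted p of 0.0293 and an adjusted p of 0.569 from limma. With 1 tumor left out the log2 fold change was -0.67 to -0.39. The unadjusted limma p was 0.0833 without control replicate 2, 0.0783 without DFX replicate 1 and 0.0879 without DFX replicate 3.

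JUND, the most constitutively expressed Jun gene, had log2 intensities of 8.09, 8.51 and 7.80 in control replicates 1 to 3 and of 8.10, 8.22 and 7.70 in DFX replicates 1 to 3. Replicate 2 was the highest and replicate 3 the lowest in both groups. This amounted to a log2 fold change of -0.12 (95% interval -0.69 to 0.44), with an unadjusted p of 0.608 and an adjusted p of 0.892 from limma and an exact permutation p of 0.8. It was 0.066 without control replicate 2 and 0.027 without DFX replicate 3.

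**Figure D3:**
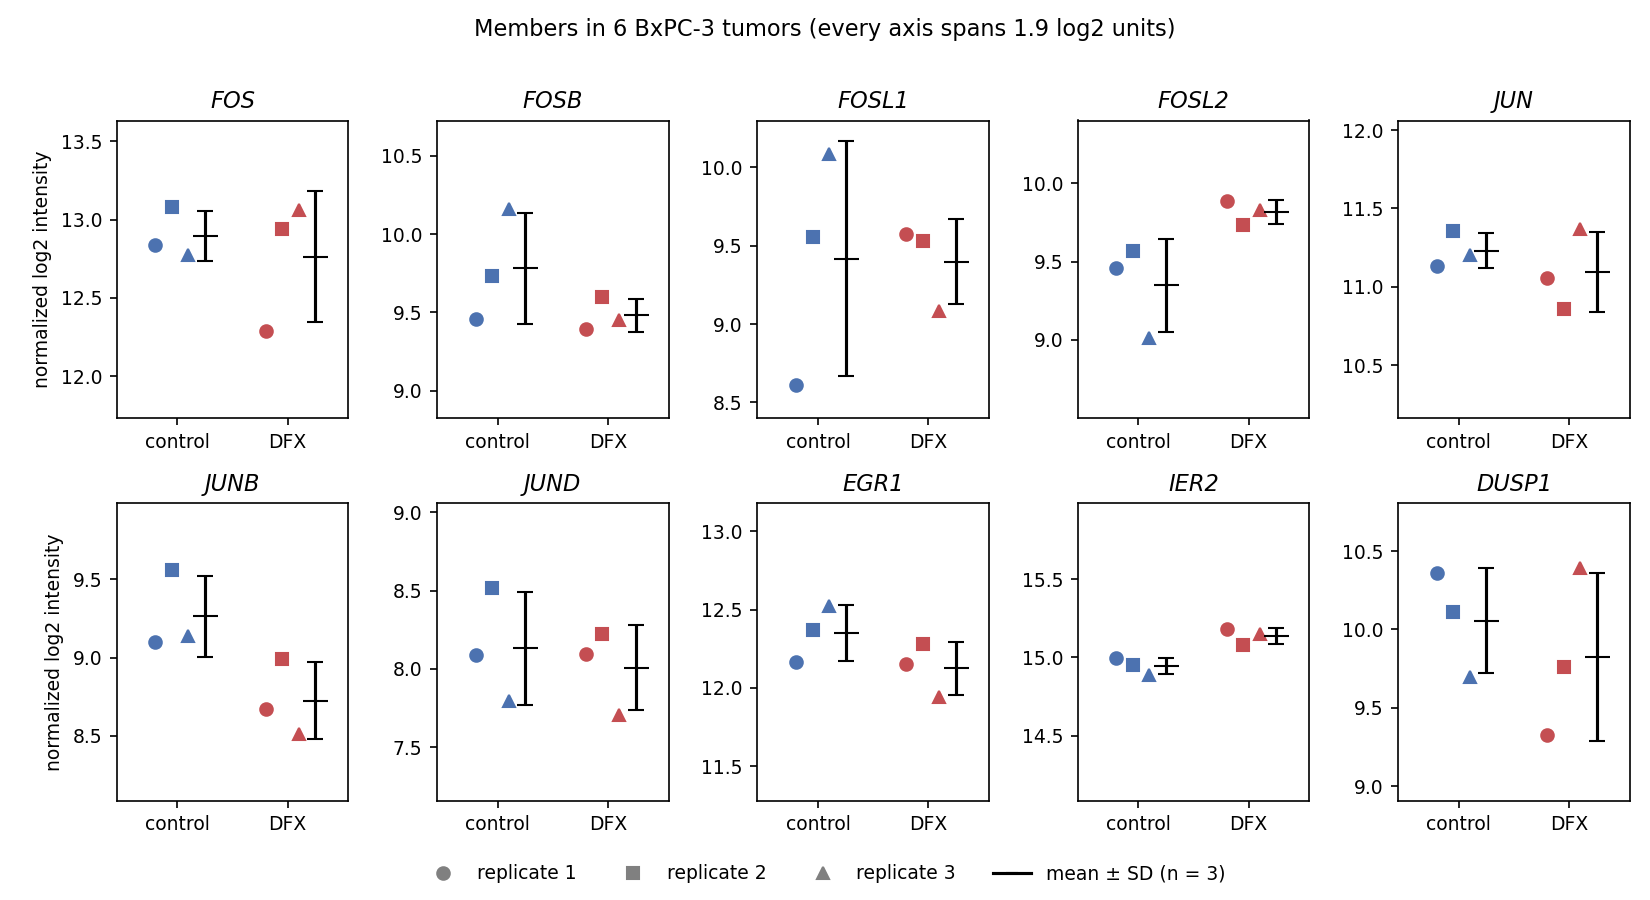
Normalized log2 intensity (y axis) of the 10 genes in each of 3 control and 3 DFX-treated tumors, with symbols for the replicate and bars for the mean ± SD. Each axis spans the same 1.9 log2 units. The groups are apart for JUNB, FOSL2 and IER2, and the control tumors are widest apart for FOSL1.

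EGR1, a zinc finger factor induced by ERK through its CArG boxes, had log2 intensities of 12.17, 12.37 and 12.52 in control replicates 1 to 3 and of 12.15, 12.28 and 11.94 in DFX replicates 1 to 3. DFX replicate 1 lay just below the lowest control tumor and DFX replicate 2 inside the control range, so the groups overlapped. The fold change was -0.23 on the log2 scale (95% interval -0.59 to 0.13), with an unadjusted p of 0.172 and an adjusted p of 0.702 from limma and an exact permutation p of 0.2. EGR1 kept its sign under all 18 alternatives, at -0.34 to -0.14.

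IER2, a small nuclear protein gene induced by growth factors, was the steadiest member. Its log2 intensities were 14.99, 14.95 and 14.89 in control replicates 1 to 3 and 15.18, 15.08 and 15.15 in DFX replicates 1 to 3. The groups did not overlap, yet the log2 fold change was only 0.19 (95% interval -0.044 to 0.43), with an unadjusted limma p of 0.0933. Its spread within groups was smaller than that of all but 2.48% of the tested probes, and the p was 0.0292 when limma was run on all 50599 probes without a filter on dim ones. With median scaling the log2 fold change of IER2 was 0.070, with an unadjusted limma p of 0.613.

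DUSP1, a phosphatase that inactivates the MAP kinases which induce it, had log2 intensities of 10.36, 10.11 and 9.69 in control replicates 1 to 3 and of 9.32, 9.76 and 10.39 in DFX replicates 1 to 3. Both the highest and the lowest value came from DFX-treated tumors, 1.07 apart. Each array held 10 spots of this probe, with an SD between spots of 0.041 to 0.087 on the log2 scale, far below the spread between tumors. The means differed by -0.23 on the log2 scale (95% interval -0.99 to 0.53), with an unadjusted p of 0.487 and an adjusted p of 0.849 from limma and an exact permutation p of 0.7. Without DFX replicate 1 the log2 fold change was 0.021. The other 9 genes had 1 spot per array. Among the 767 tested probes with 10 spots, the median SD between spots was 0.058.

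The order of the tumors differed from gene to gene. Across the 6 tumors, differences between the groups included, Pearson's r between members ran from -0.87 (FOSB with FOSL2) to 0.91 (FOSL2 with IER2), and was 0.86 for FOSB with EGR1 and 0.78 for FOS with DUSP1. Relative to the control mean, DFX replicate 1 was at -0.61 for FOS, -0.73 for DUSP1 and -0.59 for JUNB, but at 0.54 for FOSL2. DFX replicate 3 was at 0.17 for FOS and 0.34 for DUSP1, but at -0.75 for JUNB and -0.41 for EGR1. Control replicate 3 was the highest tumor for FOSB, FOSL1 and EGR1 and the lowest for FOSL2 and IER2. Control replicate 2 was the highest for FOS, JUNB and JUND, and lay above the control mean for 9 of the 10 genes. The median deviation of the 10 genes was -0.079, 0.13 and -0.088 in control replicates 1 to 3 and -0.19, -0.015 and -0.097 in DFX replicates 1 to 3. These medians overlapped between the groups.

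**Figure D4:**
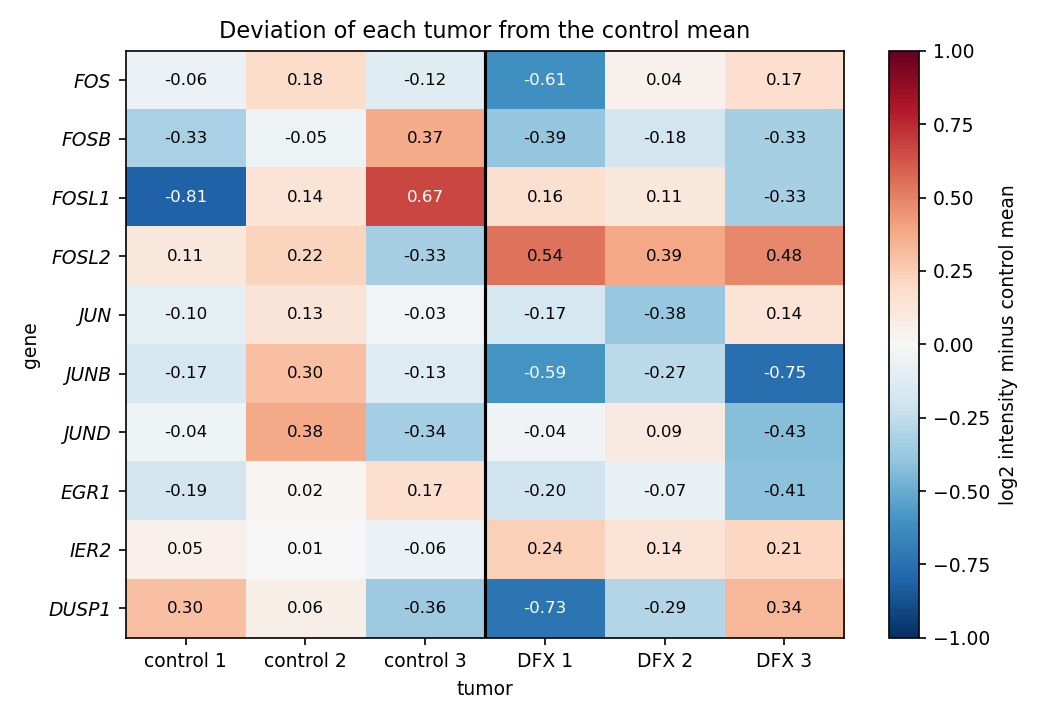
Normalized log2 intensity of each gene (rows) in each tumor (columns) minus the mean of the control tumors, printed in each cell and colored from blue (lower) to red (higher). FOSL2 is red in all 3 DFX-treated tumors and JUNB is blue in them, while FOS and DUSP1 run from blue in DFX replicate 1 to red in DFX replicate 3.

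Other genes were ranked by how closely they followed FOS or JUN across the 6 tumors, among 2163 genes that were well above background on all arrays and had a range of at least 1 on the log2 scale. The measure was Pearson's r, and the highest values of so many genes over 6 tumors are high by selection. The 5 genes most like FOS were C11orf96, NEDD9, PDLIM3, TAGLN and EDN2, with r from 0.913 to 0.945. NEDD9 is an adhesion scaffold gene, TAGLN and PDLIM3 encode actin-associated proteins and EDN2 encodes an endothelin. The 5 most like JUN were C14orf48, SCGBL, C21orf96 and the transcripts ENST00000500944 and XLOC_l2_007644, with r from 0.915 to 0.984.

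Wider lists of the pathway were described by the brightest tested probe of each gene, against 7.98% of all tested genes called, 4.29% lower and 3.68% higher. Counts by any probe give genes with several probes more chances, and they have no share over all genes beside them. Of 37 other immediate early genes, which include EGR2, EGR3, IER3, ATF3, KLF4 and ZFP36, only MCL1 passed an unadjusted p under 0.05, and the median log2 fold change was 0.038. MCL1, a survival gene of the BCL2 family, was at 11.89, 12.05 and 12.11 in the controls and at 11.75, 11.76 and 11.74 under DFX. MCL1 was therefore lower without overlap (exact permutation p of 0.1), with a difference of -0.26 on the log2 scale (standard error 0.11), with an unadjusted limma p of 0.0483.

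Of the 22 kinases and factors that switch these genes on, ELK4 was the only one to pass by the brightest probe, and 2 genes passed by any probe. ELK4, the Ets partner of serum response factor, was at 8.58, 8.76 and 8.42 in the controls and at 9.07, 8.84 and 9.10 under DFX. It was higher without overlap, by 0.42 on the log2 scale (standard error 0.14), with an unadjusted limma p of 0.0237 and an exact permutation p of 0.1. The list had a median of -0.080. Of the 12 other bZIP partners of AP-1, such as ATF2, BATF3, JDP2 and MAFG, 0 passed in limma by the brightest probe at an unadjusted p under 0.05, and 1 did by any probe, with a median of 0.098.

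The list of ERK feedback genes had 16 tested genes and also holds phosphatases of other MAP kinases, such as DUSP16. Of the 16, 3 were lower at an unadjusted p under 0.05 in limma and 0 were higher, and the median log2 fold change was -0.13. DUSP2, a nuclear MAP kinase phosphatase, was at 5.31, 5.82 and 5.26 in the controls and at 4.37, 4.66 and 4.44 under DFX. These values are near the lower end of the measurable range, and 2 of the 3 DFX-treated tumors were well above background. DUSP2 differed by -0.98 on the log2 scale (standard error 0.18), with an unadjusted limma p of 0.00182 and an exact permutation p of 0.1. DUSP16, a phosphatase of the stress-activated kinases, and SPRED2, an inhibitor of RAF activation, had log2 fold changes of -0.53 and -0.31, with unadjusted limma p of 0.0135 and 0.0225. The other tested genes of the list, the DUSP, SPRY, SPRED and ETV genes and PHLDA1, did not pass, and their log2 fold changes ran both ways, from -0.23 (SPRY2) to 0.29 (ETV5). Of the genes that did not pass, SPRY1 (0.27) was higher without overlap, and SPRY2 and SPRED1 (-0.11) were lower without overlap. SPRY1 and SPRY2 are both inhibitors of receptor kinase signaling. Among all tested probes, 15.5% had groups without overlap, 9.15% lower and 6.34% higher.

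Of 30 genes known as AP-1 targets, among them MMP1, PLAU, PLAUR, CD44 and HBEGF, 1 passed by the brightest probe and 2 by any probe. The former was TGFB1, at a log2 fold change of -0.55, a gene that the study picked from these tumors. The median of the list was -0.090, with 18 of the 30 genes below 0, against 52.3% of all tested genes. Of 12 heat shock genes, 11 were below 0, against the same 52.3%, with a median of -0.24 that is relative to the scaling between arrays. The lists were chosen with earlier results of these data known, so their counts below 0 are descriptive. Lower at an unadjusted p under 0.05 in limma were 2 of the 12, HSPA8 (log2 fold change -0.64) and HSPA4L (-0.52). None of these lists held a gene with an adjusted p under 0.05 in limma, and the adjusted p of the genes with a call was 0.513 to 0.592.

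Markers of other cell types were read on the same arrays beside these results, as summed levels over a list on the log2 scale. Red blood cell genes summed to 12.34 to 12.72 in the controls and 10.64 to 10.75 under DFX, with 2 of 3 tested genes lower (HBA2 and HBD). That sum rests mostly on HBA2, with means of 12.46 in the controls and 10.53 under DFX, while the groups overlapped for HBB. Carcinoma epithelium markers summed to 19.26 in the controls and to 19.29 to 19.32 under DFX, with 3 of 7 genes higher (EPCAM, KRT8 and KRT18). The epithelial sum rests mostly on KRT19, the brightest of the 7, whose log2 intensity was 18.44 to 18.54 in both groups. KRT19 had the identical value 18.4368 in control replicates 2 and 3 and DFX replicate 1. Quantile normalization gives every array the same set of values, so at this height the level is largely set by the normalization. Neither KRT19 nor the sum can therefore show whether the carcinoma share differed. Fibroblast markers summed to 13.55 to 14.24 and 13.37 to 13.70. Of the 7 genes, 2 were lower (DCN at a log2 fold change of -1.30 and PDGFRA at -1.12) and 1 was higher (LUM at 0.87). The fibroblast sum rests mostly on the brightest of them, COL1A1, whose groups overlapped. Leukocyte markers summed to 10.91 to 11.15 and 10.99 to 11.21 with 0 of 5 genes passing in limma. Endothelial markers summed to 8.91 to 9.89 and 9.12 to 9.23 with 1 of 4 genes higher (PECAM1). The other 3 had log2 fold changes below 0, and KDR was not well above background on any array. The probes were designed for human genes, and the part of blood, epithelium or host cells in the differences of JUNB and FOSL2 was not tested.

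Within the slide, 2 columns held 1 tumor of each group. JUNB differed by -0.10 between DFX replicate 2 and control replicate 1 in column 2, and by -0.62 between the replicates 3 in column 4. FOSL2 differed by 0.27 and 0.82 in the same columns. Since the groups of either gene did not overlap, the sign within a column was fixed in advance and only the sizes describe the columns. With the column as a random block in limma, the log2 fold changes were -0.55 and 0.46, with unadjusted p of 0.0304 and 0.0380.

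**Figure D5:**
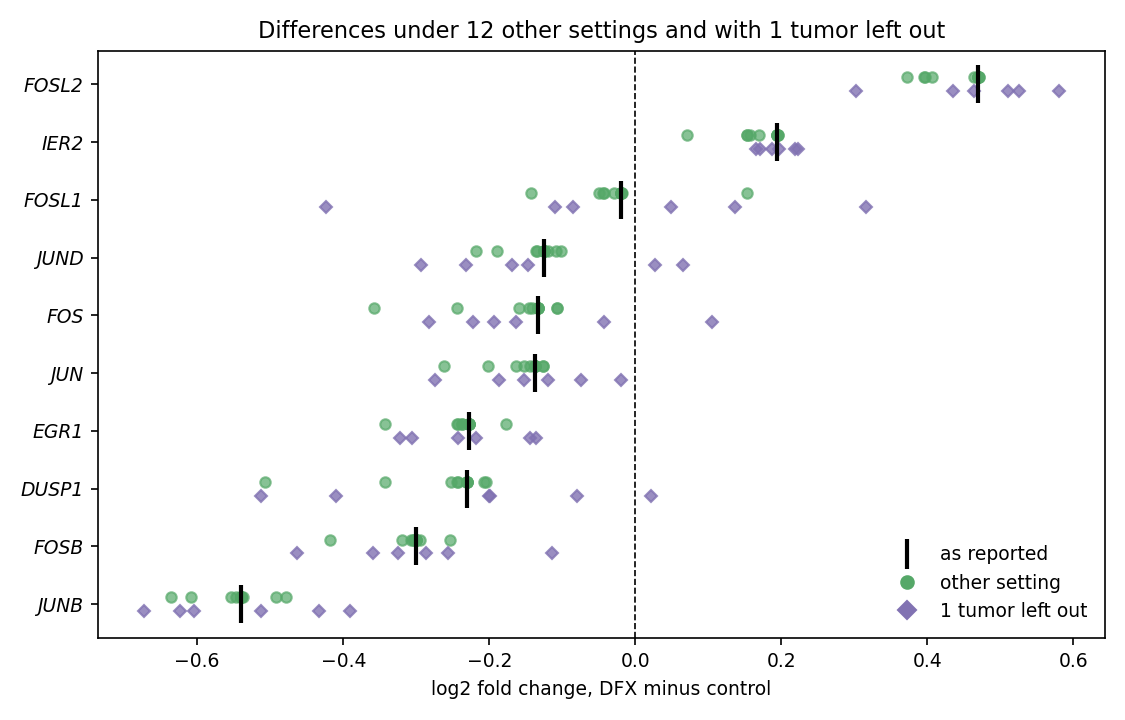
Log2 fold change of DFX-treated against control tumors (x axis) for each gene (rows) as reported (black bars), under 12 other settings (circles) and with 1 tumor left out (diamonds). JUNB stays below 0 and FOSL2 and IER2 above 0 throughout, while FOSL1, JUND, FOS and DUSP1 have values on both sides.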

How the data were processed

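RNA of 3 control and 3 DFX-treated tumors was hybridized to one-color Agilent 60-mer arrays, 1 tumor per array. The authors deposited scanner files of Agilent Feature Extraction 10.7.1.1 per the file headers (the submitters' processing notes name 9.5.1.1), with linear spot intensity, a p-value of each spot against background and flags. A table of their quantile-normalized intensity was also deposited and used as an alternative. The median difference of that table from quantile-normalized processed signal was 0.185%.

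The processed signal of 58717 non-control spots was log2-transformed and quantile-normalized, 1398 flagged spot values were left out, and spots were averaged per probe. Probes whose median background p-value was under 0.05 on all 6 arrays were tested (31807 of 50599) in R 4.3.3 by limma 3.58.1, and p-values were adjusted after Benjamini and Hochberg. Intervals used 4 residual and 2.045 prior degrees of freedom. The procedure was also run on simulated data, and the outcome is not reported here. Members and lists were chosen with earlier results of these data known. Named from each list were genes with an unadjusted p under 0.05 and no overlap between groups, at most 6. All 10 members, which match RefSeq symbols, and the 5 genes most like FOS and JUN were named too. Other list genes are named as examples of list content or, for SPRY1, SPRY2, SPRED1, ETV5 and the marker genes, were chosen after their values were seen. Alternatives covered scaling, background correction, signal column, filter, flags, test, weights, blocks and each tumor left out.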

Additional observations from a re-analysis of the deposited data

How the results depend on the processing

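JUNB and FOSL2 kept their direction under all 18 alternatives, at log2 fold changes of -0.67 to -0.39 and 0.30 to 0.58. JUNB no longer passed an unadjusted limma p under 0.05 in 3 of them and FOSL2 in 5. The count of called members was 2. It was 1 with median scaling and 1 with the replicate block, where FOSL2 had an unadjusted limma p of 0.0519 and 0.0537 and JUNB one of 0.0188 and 0.0108. With 1 tumor left out the count was 0 to 3, with 0 without DFX replicate 1 or 3, and 1 without control replicate 2 or DFX replicate 2. The median of the members was -0.21 to -0.059 with 1 tumor left out and -0.25 with median scaling, under which all tested probes had a median of -0.10. The count of called probes was 2675, and 4927 with the Kruskal-Wallis H test, whose p falls under 0.05 whenever groups of 3 do not overlap. IER2 then passed as well, and FOSB passed without control replicate 1.

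Small differences changed sign, and with 1 tumor left out FOS lay from -0.28 to 0.10, DUSP1 from -0.51 to 0.021, JUND from -0.29 to 0.066 and FOSL1 from -0.42 to 0.32. FOS and DUSP1 were above 0 without DFX replicate 1, and JUND (0.027) and FOSL1 (0.14) without DFX replicate 3. Both were also above 0 without control replicate 2 (FOSL1 at 0.049), and FOSL1 without control replicate 3. FOSL1 was at 0.15 with array quality weights. The cause of these moves was not tested. Tumors with the same replicate number had deviations that correlated at 0.027, 0.027 and 0.016, which gives no sign of pairing by number. With 3 tumors per group this cannot decide whether the numbers pair the tumors, which were treated as unpaired. All member probes were well above background on all 6 arrays.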
